A study of Mus musculus with 4 samples.

Results

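The genes described here are 9 components of phosphoinositide, mTOR and LKB1 signalling, Inpp5d, Inpp4a, Irs1, Pik3c2b, Pip4k2a, Pikfyve, Tsc1, Cab39 and Stradb, out of 4167 genes with complete lines in the expression table. They were chosen by name as the table's genes of these pathways, and not by any measured value. The table holds genes of chromosome 1 and of chromosome 2 up to position 31460738 (GRCm38). Genes elsewhere, among them most of these pathways and Atf4 itself on chromosome 15, were not analysed here, so the deletion could not be checked. RNA came from long-term haematopoietic stem cells (LT-HSCs), the bone marrow cells that renew themselves and sustain all blood lineages, sorted from tibia and femur. One group of mice was wild-type (WT), and in the other ATF4 had been deleted as a conditional knockout (ATF4 KO). ATF4, a transcription factor, acts in the integrated stress response. The labels give neither the driver of the conditional deletion nor strain, age or treatment, and no treatment is named for either group. There were 2 libraries per genotype, made from polyadenylated RNA by a customised Smart-seq2 protocol, which amplifies full-length cDNA from minute inputs. Nothing says whether they came from separate animals, so p-values measure only the spread between these libraries, which may be technical.

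Growth factor receptors activate phosphoinositide 3-kinases (PI3K), often through adaptors such as IRS proteins, and the lipid made at the membrane recruits AKT. Lipid phosphatases remove that signal, while the TSC complex holds back the kinase complex mTORC1 until AKT inactivates it. LKB1, a kinase that works with a STRAD and an MO25 protein, activates AMPK, which restrains mTORC1 when energy is low. In haematopoietic stem cells these pathways are known for their part in quiescence: loss of TSC1 or of LKB1 in mice drives the cells into cycle and exhausts them.

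The deposited values are log2 numbers that follow a regularized logarithm, and the read numbers behind them could be worked back exactly for 1925 of the 1928 genes with values other than 0. The libraries WT 1 and WT 2 held 1016875 and 833321 reads in the analysed genes, and ATF4 KO 1 and ATF4 KO 2 held 44021 and 54302. The ATF4 KO reads were concentrated: the 10 genes with most reads held 48.2% and 47.0% of them, against 13.1% and 14% in WT. Of 101 genes with at least 100 reads in an ATF4 KO library, 62 had 0 or 1 read in the other. The size factors, which set the depth on the deposited scale, were 0.166% and 0.171% of that of WT 1 in the ATF4 KO libraries, whereas their total reads were 4.33% and 5.34%. Which of these is the better depth was not tested, and the 9 genes are therefore given under both.

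Genes of a fixed list of HSC markers, not chosen to mark LT-HSCs alone, had fewer reads in ATF4 KO. The factor depends on the measure of depth. Of 10 listed HSC markers, 3 were in the table (Slamf1, Gfi1b and Cd34), and their summed level was 19890 and 20020 RPM (reads scaled to a common library total, over the analysed genes) in WT and 204 and 147 in ATF4 KO, with Slamf1 and Gfi1b at 0 in both ATF4 KO libraries. Of 7 myeloid markers, 3 were in the table, with summed levels of 1812 and 2168 RPM in WT and 35690 and 16590 in ATF4 KO. In ATF4 KO nearly all of this was Fcer1g, with 1083, 982, 1569 and 901 reads in WT 1, WT 2, ATF4 KO 1 and ATF4 KO 2, while Cxcr2 had 0 ATF4 KO reads. On the deposited scale, Cd34, which carries most of the HSC sum, differed by -1.24 (limma, adjusted p = 0.186) and Fcer1g by 3.13 (limma, adjusted p = 0.0564), and neither passed. Gfi1b (-3.01, adjusted p = 0.00286 by limma) and Slamf1 (-0.86, adjusted p = 0.0424 by limma) passed, with ATF4 KO values of genes at 0 reads. The 2 B cell and 5 T and NK cell markers in the table were at 0 in both ATF4 KO libraries. So were 56.6% of all tested genes, and 91.7% of genes with a mean WT value below 2. Selp, the megakaryocyte and platelet marker in the table, had 1508 and 1271 RPM in WT, 22.7 in ATF4 KO 1 and 0 in ATF4 KO 2. The part of these markers in the results below was not tested. In bulk RNA fewer cells of a type and less RNA per cell cannot be told apart.

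The 9 genes together held 5851 reads in WT 1 and 3994 in WT 2, and 11 in ATF4 KO 1 and 4 in ATF4 KO 2. As a share of all reads this was 0.575% (Wilson 95% interval 0.561 to 0.590) and 0.479% (0.465 to 0.494) in WT, and 0.025% (0.014 to 0.0447) and 0.00737% (0.00287 to 0.0189) in ATF4 KO. A fall in share was not limited to these genes. All genes with a mean WT value of 5 to 6 had 1694 ATF4 KO reads where their WT share predicts 12980. Those above 6 had 93765 where it predicts 71260. Each of 8 genes had reads in both WT libraries, and Irs1 had none anywhere. In each ATF4 KO library just 2 of the genes had a read, Inpp5d and Pikfyve in the first and Cab39 and Pikfyve in the second. Intervals cover counting error only, since amplified reads without molecular identifiers are not independent molecules.

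**Figure D1:**
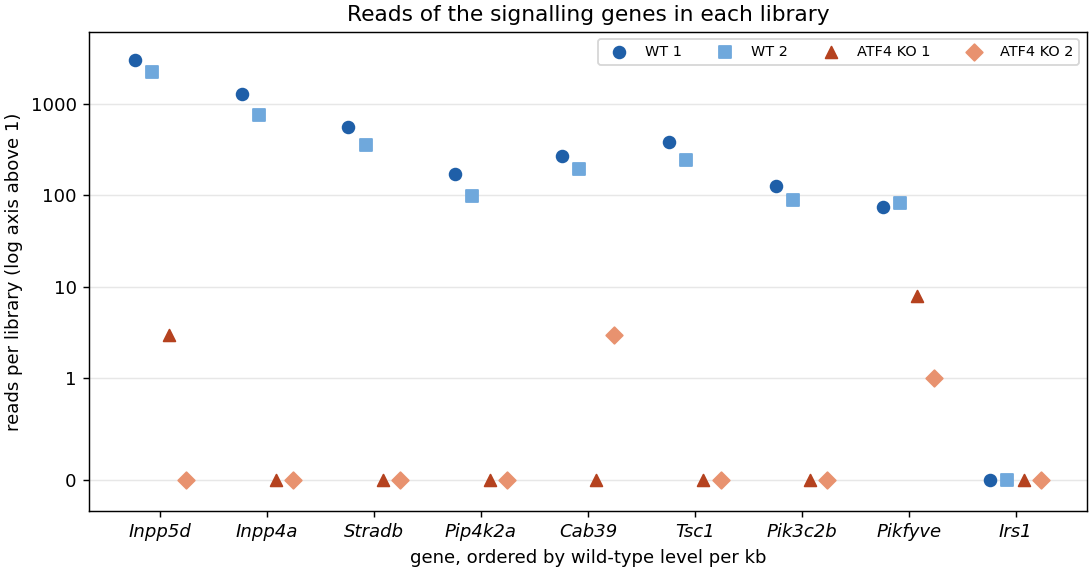
Reads per library (vertical axis, logarithmic above 1) of the 9 genes, ordered by WT level per kb; each symbol is 1 of the 4 libraries. All WT symbols but those of Irs1 lie between 74 and 2990 reads, and the 4 ATF4 KO symbols above 0 lie between 1 and 8.

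On the deposited log2 scale, 3 of the 8 genes with enough signal to test (Inpp4a, Stradb and Tsc1) were lower in ATF4 KO and 0 were higher (limma, Benjamini-Hochberg adjusted p under 0.05 over 1199 genes). Among all tested genes 22.4% were lower and 24.6% higher. The median difference, ATF4 KO minus WT, was -0.61 over the 8 genes and 0.02 over all tested genes. These medians cover different WT levels, since none of the 8 genes had a mean WT value below 2. With the lowest value set to 3 instead of 1, the median over the 670 genes tested was -1.01, with 240 lower and 15 higher. Pik3c2b and Pip4k2a were not tested at that setting. The contrast of -0.61 with 0.02 therefore does not set the 8 genes apart from others of their WT level. For 6 of the 8, both ATF4 KO values lay below both WT values, a pattern held by 40.7% of tested genes, and for 1, Pikfyve, both lay above (40.5%). On the recovered reads, limma's voom called 1 of the 8 lower (Inpp4a) and 1 higher (Pik3c2b) with the size factors as depth, where 6.94% of tested genes were lower and 20.9% higher. With total reads as depth it called 5 lower (Inpp4a, Stradb, Tsc1, Pik3c2b and Pip4k2a) and 0 higher, where 46.4% were lower and 1% higher. The genes named in these voom fits had 0 ATF4 KO reads. Their ATF4 KO values there are set by the depth and by the fraction of a read that voom adds to every count. With 2 libraries against 2, an exact permutation test of any single gene cannot go below p = 0.333.

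The 3 genes that passed all had 0 reads in both ATF4 KO libraries. So did Pik3c2b and Pip4k2a, which makes 5 of the 8, and 56.6% of tested genes shared that state; 3 of the 8, and 43.4% of tested genes, had at least 1 ATF4 KO read. For such a gene the deposited ATF4 KO value is no measurement of its own: the transform draws it towards 2.36 in ATF4 KO 1 and 2.31 in ATF4 KO 2 from the gene's mean. The difference then mainly restates the WT level, and the close agreement of the 2 ATF4 KO values is given by the transform. Inpp5d in ATF4 KO 2 and Cab39 in ATF4 KO 1 were also at 0 reads, and those values too are placed by the transform.

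**Figure D2:**
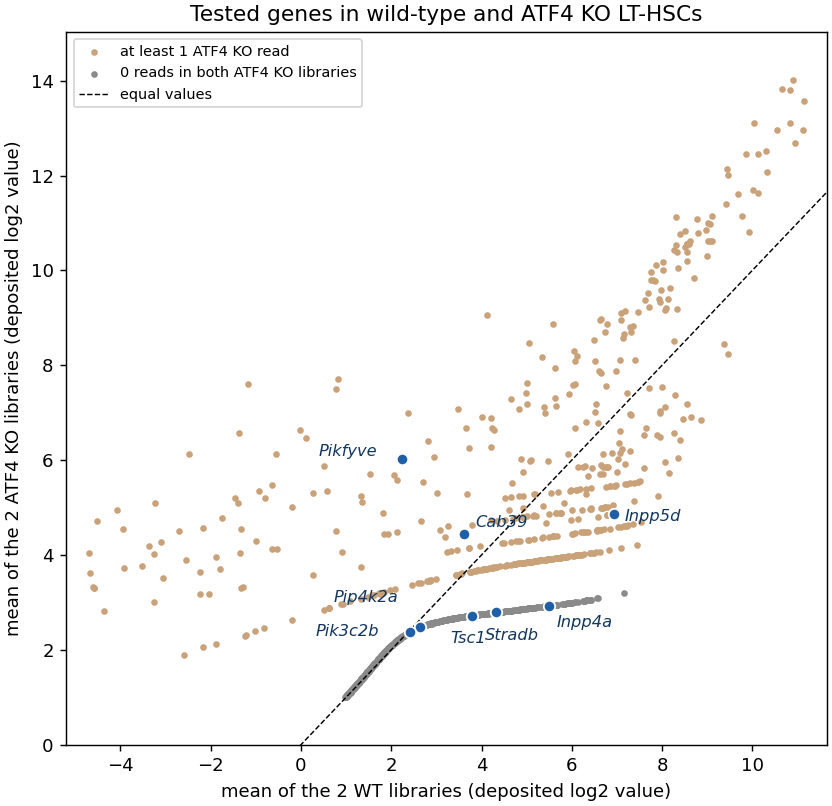
Mean deposited log2 value in the 2 ATF4 KO libraries (vertical) against that in the 2 WT libraries (horizontal) for the tested genes, with 8 of the signalling genes in blue. Genes with 0 ATF4 KO reads (grey) fall on a single curve, which carries Pik3c2b, Pip4k2a, Tsc1, Stradb and Inpp4a in order of their WT level; Inpp5d lies below the line of equal values, and Cab39 and Pikfyve lie above it.

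The promoters of the 3 genes that passed are shown because ATF4 binds DNA, alone or with partners, at CRE-like and composite sites. Each run is the 250 bases before the transcription start in RefSeq (GRCm38.p6), read on the plus strand, with any palindromic CRE, TGACGTCA, in capitals.
Inpp4a, chr1:37299588-37299837: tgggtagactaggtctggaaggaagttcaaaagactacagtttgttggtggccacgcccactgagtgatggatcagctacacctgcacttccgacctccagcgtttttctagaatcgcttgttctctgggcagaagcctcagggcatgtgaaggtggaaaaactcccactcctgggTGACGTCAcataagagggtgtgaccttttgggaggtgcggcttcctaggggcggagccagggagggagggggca
Stradb, chr1:58973272-58973521: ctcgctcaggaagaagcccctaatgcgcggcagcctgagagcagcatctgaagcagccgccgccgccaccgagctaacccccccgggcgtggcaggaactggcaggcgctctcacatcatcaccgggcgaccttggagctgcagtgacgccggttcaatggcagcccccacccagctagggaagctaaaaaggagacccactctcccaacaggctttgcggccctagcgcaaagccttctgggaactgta
Tsc1, chr2:28640983-28641232: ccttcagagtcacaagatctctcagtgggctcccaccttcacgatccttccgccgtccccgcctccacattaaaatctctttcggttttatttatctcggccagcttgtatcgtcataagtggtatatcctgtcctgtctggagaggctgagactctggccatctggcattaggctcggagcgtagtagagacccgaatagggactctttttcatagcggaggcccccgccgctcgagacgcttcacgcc

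The CRE of Inpp4a begins 74 bases before the start. All 9 genes matched the promoter table, with 11 windows of 300 bases (250 before and 50 after the start), as Inpp4a has several starts. TGACGTCA, which reads the same on both strands, occurred in 2 of these windows, both of Inpp4a and overlapping at the same site, and in 1.79% of all 32851 windows. TGATGNAA, the core of the C/EBP-ATF composite site, searched on both strands, occurred in 0 of the 11 and in 3.97% of all windows. With TGATGNAA absent from them, the 2 motifs could not overlap in the windows of these genes. All 11 windows had a higher GC content than the median window of 52.7%. A match describes letters and is not a measured binding site.

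The SH2-domain phosphatase SHIP1, encoded by Inpp5d (chromosome 1, 87620312 to 87720507, plus strand), removes the 5-phosphate from the PI3K product and is largely restricted to blood cells. It had 2990 reads in WT 1, 2184 in WT 2, 3 in ATF4 KO 1 and 0 in ATF4 KO 2. The deposited values were 6.99, 6.89, 6.31 and 3.40 in the same order. Both ATF4 KO values were below both WT values, but only ATF4 KO 2 lay far below them, and the difference of -2.08 ± 1.25 (SE) did not pass (limma, adjusted p = 0.275). It was -3.53 without ATF4 KO 1, where the ATF4 KO 2 value that remains has 0 reads and is placed by the transform. Without ATF4 KO 2 it was -0.62, with 3 reads where 4.76 were expected at the size factors. Both fits take the spread from the WT pair alone. Against the 9.69 reads expected over the ATF4 KO pair at the WT level and the size factors, the 3 observed gave a ratio of 0.310 (exact Poisson 95% interval 0.0639 to 0.905). With total reads as depth, 273 were expected and the ratio was 0.0110 (0.00226 to 0.0321).

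Inpp4a (chromosome 1, 37299865 to 37410736, plus strand) encodes a phosphatase that removes the 4-phosphate from the lipid that SHIP1 leaves behind. Its reads were 1287 and 747 in WT 1 and WT 2 and 0 in both ATF4 KO libraries, with values of 5.70, 5.30, 2.95 and 2.91. The groups did not overlap, and the difference of -2.57 ± 0.21 (SE) passed (limma, adjusted p = 0.00468). At the size factors 3.76 reads were expected over the pair, so 0 reads puts it at least 1.25-fold lower, taking 3 reads over the pair as the limit that a count of 0 allows. The exact Poisson 95% interval allows slightly more reads, with an upper ratio of 0.982, just under 1. All fold limits given here for genes with 0 reads use the 3-read limit and are larger than that interval would give. At total reads 106 were expected, and it was at least 35.4-fold lower. All fold limits at total reads include a shortfall shared with other genes of the same WT level, given below.

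The adaptor IRS1 couples the insulin and IGF1 receptors to PI3K. Irs1 (chromosome 1, 82233101 to 82291416, minus strand) was listed at 0 in all 4 libraries and had no test. A count of 0 allows up to 2.95 and 3.60 RPM in WT 1 and WT 2, but up to 68.1 and 55.2 in ATF4 KO 1 and ATF4 KO 2. Its exons overlap the gene model Gm9747 on the opposite strand. The strand setting of the counting is not given in the sources used here.

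The kinases PI3K-C2β, PI5P4Kα and PIKfyve, encoded by Pik3c2b, Pip4k2a and Pikfyve, make different phosphoinositides. Pik3c2b (chromosome 1, 133045667 to 133108687, plus strand) encodes a class II enzyme that makes singly and doubly phosphorylated lipids. It had 127 and 88 WT reads and 0 in both ATF4 KO libraries. Its values of 2.44, 2.39, 2.39 and 2.37 were almost equal, at the level where the transform places a gene with 0 reads. The difference was -0.04 ± 0.03 (SE; limma, adjusted p = 0.402), and of the fits with a library left out it passed in the one without WT 2 (-0.07). On reads at the size factors limma's voom called it higher, by 1.32 (adjusted p = 0.0309), with 0 ATF4 KO reads observed. This method adds a fraction of a read to every count. That amount exceeds the 0.197 and 0.204 reads expected in ATF4 KO 1 and ATF4 KO 2, so the call shows no higher level. Only 0.401 reads were expected over the pair at the size factors, so a lower level was not detectable at that depth. At total reads 11.3 were expected, and 0 reads puts it at least 3.78-fold lower.

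PI5P4Kα phosphorylates phosphatidylinositol 5-phosphate. Its gene Pip4k2a (chromosome 2, 18842255 to 18998126, minus strand) had 172 and 99 WT reads and 0 in both ATF4 KO libraries, with values of 2.74, 2.56, 2.49 and 2.47. The ATF4 KO values were the lower ones, but the difference of -0.17 ± 0.08 (SE) did not pass (limma, adjusted p = 0.194). It passed without WT 1 (-0.08) and without WT 2 (-0.26). On reads at the size factors it was reversed, at 1.03 (voom, adjusted p = 0.0724). With 0 ATF4 KO reads, this reversal too rests on the fraction of a read that voom adds. Expected reads over the pair were 0.5 at the size factors and 14.2 at total reads, where 0 reads puts it at least 4.72-fold lower.

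Pikfyve (chromosome 1, 65186683 to 65278695, plus strand) encodes the endosomal kinase that makes the 3,5-bisphosphate form and is needed for lysosome homeostasis. It had 74 reads in WT 1, 83 in WT 2, 8 in ATF4 KO 1 and 1 in ATF4 KO 2. No other of the 9 genes was detected in all 4 libraries. Its values were 2.01, 2.46, 7.42 and 4.62, so both ATF4 KO values exceeded both WT values. The difference of 3.79 ± 1.18 (SE) did not pass (limma, adjusted p = 0.1). It was 2.38 without ATF4 KO 1, on the 1 read of ATF4 KO 2, and 5.19 without ATF4 KO 2. At the size factors 0.301 reads were expected over the pair, so the 9 observed gave a ratio of 29.9 (exact Poisson 95% interval 13.7 to 56.7). At total reads 8.47 were expected and the ratio was 1.06 (0.486 to 2.02), an interval that includes 1. Of the 9 reads, 8 came from ATF4 KO 1.

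TSC1, or hamartin, stabilises the TSC complex that inactivates the small GTPase RHEB and so restrains mTORC1. Tsc1 (chromosome 2, 28641228 to 28691167, plus strand) had 383 and 244 WT reads and 0 in both ATF4 KO libraries. Its values were 3.90 and 3.67 in WT and 2.74 and 2.71 in ATF4 KO, without overlap. The difference of -1.06 ± 0.11 (SE) passed (limma, adjusted p = 0.00688). At the size factors just 1.16 reads were expected over the pair, fewer than the 3 that a count of 0 allows, so the reads gave no fold limit there and limma's voom on the reads did not call it (difference -0.20, adjusted p = 0.530). At total reads 32.9 were expected, and it was at least 11-fold lower.

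Of the LKB1 partners, Stradb encodes a STRAD pseudokinase, which activates LKB1 by binding it. Stradb (chromosome 1, 58973522 to 58995715, plus strand) had 552 and 354 WT reads and 0 in both ATF4 KO libraries, with values of 4.45, 4.2, 2.80 and 2.77. The groups did not overlap and the difference of -1.54 ± 0.12 (SE) passed (limma, adjusted p = 0.00412). It was not called on reads at the size factors (voom, difference -0.74, adjusted p = 0.0957), where 1.68 were expected. At total reads 47.6 were expected, and it was at least 15.9-fold lower.

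Cab39 (chromosome 1, 85793441 to 85851576, plus strand) encodes MO25α, the scaffold that locks the LKB1-STRAD complex in its active form. It had 266 and 195 WT reads, 0 in ATF4 KO 1 and 3 in ATF4 KO 2. The values were 3.66 and 3.57 in WT and 2.88 and 5.98 in ATF4 KO: one ATF4 KO library was below both WT libraries and the other above. The lower value, of ATF4 KO 1, is where the transform places a library with 0 reads. Just 0.424 reads were expected there at the size factors, so it is no measured lower level. The difference of 0.82 ± 1.29 (SE) did not pass (limma, adjusted p = 0.619). It was 2.37 without ATF4 KO 1 and -0.73 without ATF4 KO 2, of opposite sign, and the latter rests on the library with 0 reads. The ratio to expected reads was 3.48 (exact Poisson 95% interval 0.717 to 10.2) at the size factors and 0.123 (0.0254 to 0.360) at total reads. Whether the differences of Stradb and Cab39 differ from each other was not tested.

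**Figure D3:**
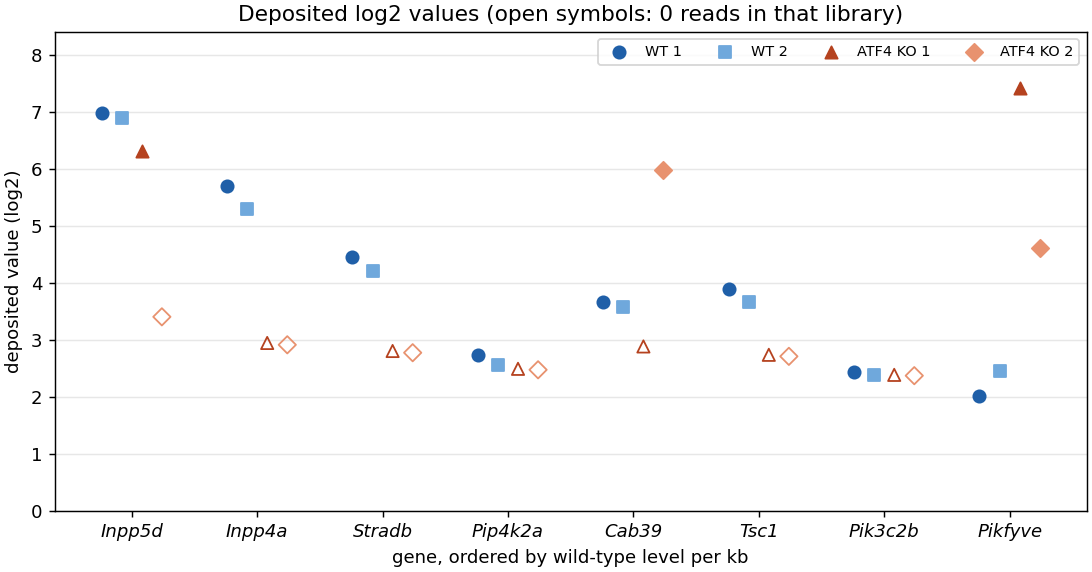
Deposited log2 values (vertical) of the 8 tested genes in each library, ordered by WT level per kb, with open symbols for libraries with 0 reads. The open symbols lie between 2.37 and 3.40, and the 4 filled ATF4 KO symbols between 4.62 and 7.42.

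Summed over the 8 genes, 15 ATF4 KO reads were observed where the size factors predict 18.4, a ratio of 0.817. It was 0.429 without ATF4 KO 1 and 1.22 without ATF4 KO 2. Another measure of depth was taken from the 413 genes of WT levels 3 to 6, which had 3534 ATF4 KO reads where the size factors predict 856, a yield of 4.13. Relative to that yield the ratio of the 8 genes was 0.198, and relative to total reads, with 518 expected, it was 0.0289. Of the 8, only Tsc1, Cab39, Stradb and Inpp4a lie at WT levels 3 to 6, and the yield differed by level. Above level 6, where Inpp5d lies, 93765 ATF4 KO reads were observed and 2528 predicted by the size factors. At level 2 to 3, which holds Pik3c2b, Pip4k2a and Pikfyve, they were 346 and 63.6. Inpp5d was below its expected reads on all 3 depths, with ratios of 0.310, 0.0751 and 0.0110. Inpp4a was at least 1.25-, 5.17- and 35.4-fold lower by the 3-read limit. Its upper Poisson limits were ratios of 0.982, 0.238 and 0.0347. Pikfyve had ratios of 29.9, 7.24 and 1.06, and Cab39 3.48, 0.842 and 0.123. These intervals treat the reads as independent, while the ATF4 KO libraries differed from each other far beyond counting error in their most abundant genes.

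**Figure D4:**
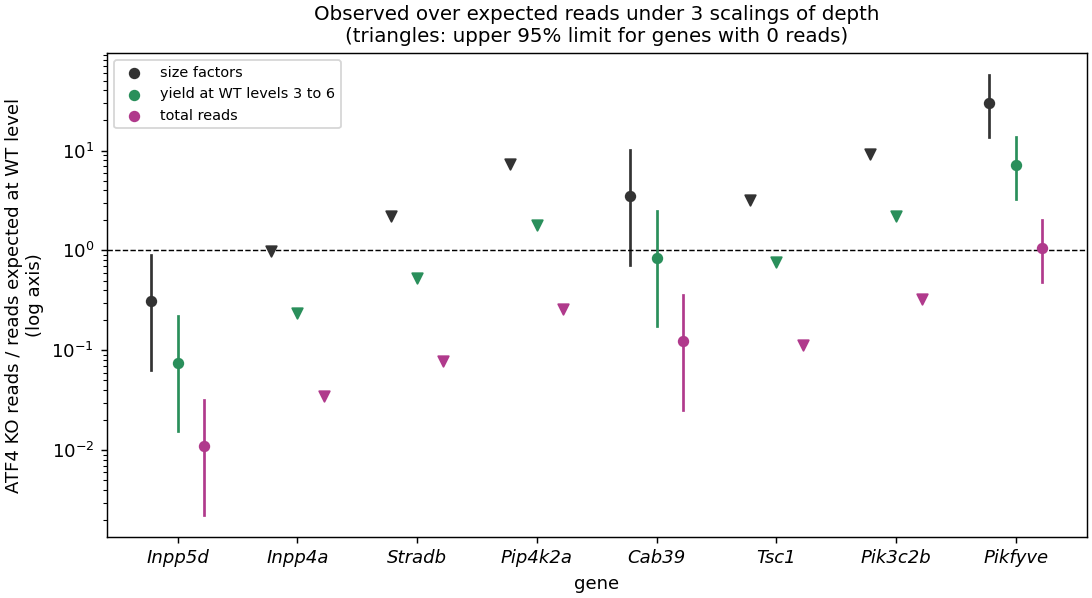
Observed over expected ATF4 KO reads (vertical, logarithmic) of the 8 tested genes for 3 measures of depth; lines are exact Poisson 95% intervals and triangles the upper limit of a gene with 0 reads. Pikfyve moves from 29.9 to 1.06 and Cab39 from 3.48 to 0.123 between size factors and total reads, while Inpp5d stays below 1.

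Whether a gene had any ATF4 KO read followed its WT level across the table. Both libraries were at 0 for 87.1% of 155 genes of WT level 2 to 3, a range that holds Pik3c2b, Pip4k2a and Pikfyve. The share was 74.1% at level 3 to 4 (Tsc1 and Cab39), 60% at 4 to 5 (Stradb), 32.4% at 5 to 6 (Inpp4a) and 7.35% above 6 (Inpp5d). Pikfyve, with 9 reads, stood at a level where 135 of 155 genes had none. Inpp4a was one of the 44 of 136 genes at its level without a read. Summed over all genes of a level, ATF4 KO reads also fell short of those expected at total reads. They were 346 against 1796 at level 2 to 3, 366 against 2939 at 3 to 4, 1474 against 8236 at 4 to 5 and 1694 against 12980 at 5 to 6. Above 6 they exceeded it, at 93765 against 71260. The fold limits at total reads are therefore not particular to the genes named.

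**Figure D5:**
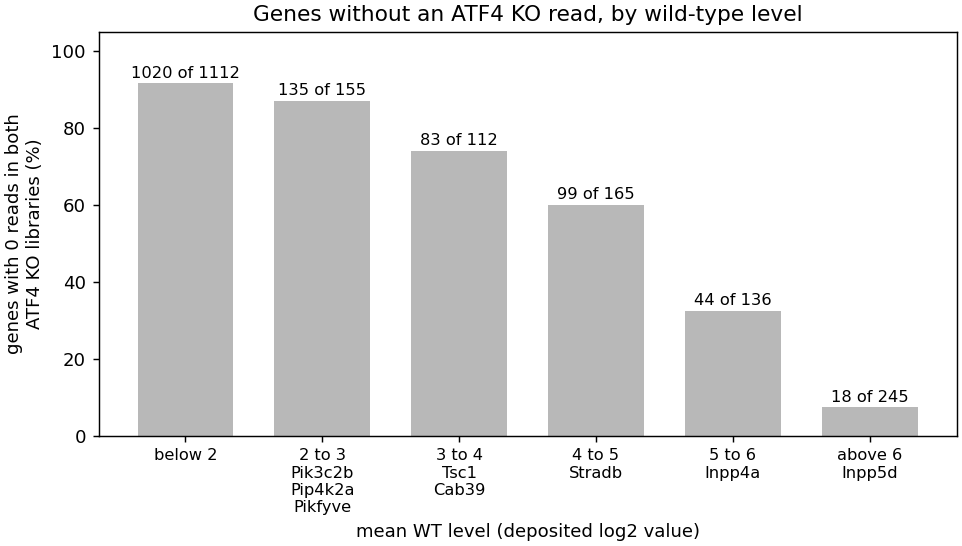
Share of genes lacking reads in both ATF4 KO libraries (vertical, percent) by mean WT level (horizontal, deposited log2 value), with the number of genes on each bar and the signalling genes named under their level. The share falls from 91.7% below level 2 to 7.35% above level 6.

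Per length, the WT levels spanned a wide range. Over the merged exons of all transcripts in GENCODE M21, Inpp5d was the highest at 366 ± 29.7 RPKM (RPM per kb of exon; mean ± SD, n = 2), above 84.9% of tested genes. Inpp4a followed at 104 ± 25.1, Stradb at 66.7 ± 11.5, Pip4k2a at 41.4 ± 10.2 and Cab39 at 35.0 ± 2.76. Tsc1 was at 28.3 ± 5.01, Pik3c2b at 12.5 ± 1.48 and Pikfyve at 4.49 ± 0.988, above 10.1% of tested genes, whose median was 50.1. The libraries of neighbours in this order overlapped for Pip4k2a (48.7 and 34.2) and Cab39 (37.0 and 33.1), and for no other pair. Pikfyve has the longest merged exons of the 9 genes (19.2 kb), but of the 8 with reads it was also the lowest in both WT libraries before division by length, at 72.8 and 99.6 RPM.

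Between the WT libraries, the ratio of WT 1 to WT 2 at the size factors was above 1 for 7 of the 8 genes. Over 828 genes with at least 100 WT reads the median ratio was 0.987. The ratio was 1.36 for Inpp4a (95% interval from counting 1.24 to 1.49) and 1.37 for Pip4k2a (1.07 to 1.78). Both lay above the 90th percentile of 1.33 over the 828 genes. For Pikfyve the ratio was 0.704 (0.508 to 0.975), below the 10th percentile of 0.778. Inpp5d, at 1.08 (1.02 to 1.14), lay within that range, as did Stradb, Tsc1, Pik3c2b and Cab39.

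Of 155 other genes listed for these pathways, 10 were in the table and 8 could be tested: 3 were lower and 2 higher by limma, against 22.4% lower and 24.6% higher over the whole test. All 5 had 0 reads in both ATF4 KO libraries, as did 56.6% of tested genes. Inpp5e, a 5-phosphatase of the primary cilium, differed by -2.37 ± 0.17 (SE; limma, adjusted p = 0.00350), with 1055, 660, 0 and 0 reads. The inositol phosphate enzymes Inpp1 and Ppip5k2, with 0 ATF4 KO reads each, differed by -2.19 and -2.09. Phlpp1, a phosphatase of AKT, passed in the higher direction by 0.07. It had 0 ATF4 KO reads, and its WT values of 1.57 and 1.57 lay under the level at which the transform places such genes. At total reads 3.07 were expected over the pair, about the 3 that a count of 0 allows. Sgk3, an AKT-related kinase that binds phosphatidylinositol 3-phosphate, had 3 and 1 ATF4 KO reads after 1788 and 1455 in WT and did not pass (difference -0.68; limma, adjusted p = 0.443). Nuak2, a kinase activated by LKB1, had 2 and 0 after 576 and 560 (difference -0.54; limma, adjusted p = 0.692). Itpkb, which phosphorylates soluble inositol trisphosphate, had 0 in both (difference 0.04; limma, adjusted p = 0.207), where 0.320 were expected over the pair at the size factors and 9.02 at total reads. Prkag3 and Mark1 were too low to test.

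The gene nearest to each of the 8 over the 4 log2 values, by Euclidean distance, was Cflar for Inpp4a (0.203), Tbc1d8 for Stradb (0.0434) and Pou2f1 for Tsc1 (0.0632). It was Fbxo36 for Pik3c2b (0.0145) and Arhgef4 for Pip4k2a (0.0326). These 5 neighbours also had 0 ATF4 KO reads, so the likeness is one of WT level. Inpp5d was nearest to Traf3ip3 (0.3), whose ATF4 KO reads were 3 and 0 as well, and Cab39 to Cep170 (0.628), with 0 and 2. Pikfyve had no close neighbour: Rnpepl1 was nearest at 2.11, with 10 and 0 ATF4 KO reads.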

How the data were processed

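RNA of sorted LT-HSCs was measured in 4 libraries, grouped by title. The submitters' processing notes name HISAT2 2.2.1, featureCounts, DESeq2 and GRCm38, without roles. The deposited table holds log2 values; the authors' transform is not stated. Of its lines 4167 are complete, and the last, cut short, was left out. Reads were worked back by solving a regularized logarithm (ridge weight 0.164, at least 0.5 fitted reads). They were whole within 1e-06 and returned the values within 1e-09; 3 genes could not be solved. The steps were tested on simulated data.

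The genes and lists were chosen with earlier results of these data known. All 9 genes are named, the listed pathway genes that could be tested (some items are not reported here), and the nearest gene by distance. The test was limma 3.58.1 (R 4.3.3, trended, robust) on the log2 values of genes at 1 or more in 2 libraries. Expected reads are mean size-factor-scaled WT reads times the ATF4 KO size factors. Scalings by total reads, and libraries left out of the read ratio, were added after the values were seen. Intervals used scipy 1.17.1, and coordinates came from GENCODE M21.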

Additional observations from a re-analysis of the deposited data

How the results depend on the processing

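Inpp4a, Stradb and Tsc1 passed in every limma fit on the log2 values, but their ATF4 KO values, at 0 reads, are set by the transform, and they pass a lowest value of 3 through WT alone, so this is no sign of stability. Of the 8 genes, 3 were called with no filter, a lowest value of 3, no trend in the prior or a replicate block, and 4 to 6 with a library left out, where the lone library is assumed to vary like the other group. On recovered reads, voom called 2 at the size factors (Inpp4a lower, Pik3c2b higher) and 5 at total reads, all lower. All of these had 0 ATF4 KO reads, where the value rests on the fraction of a read that voom adds. Over all genes, 563 were called, with 1315 unfiltered, 255 at a lowest value of 3, 332 without the trend, 510 with the block, 634 to 884 with a library left out, and by voom 333 at the size factors (250 higher, 83 lower) and 567 at total reads (12 higher, 555 lower). The median difference of all genes was 1.28 and -3.54 in those voom fits.

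Reversed differences were 1.32 for Pik3c2b and 1.03 for Pip4k2a (voom, size factors), where 0 ATF4 KO reads leave the value to the amount voom adds. Others were -0.46 for Pikfyve and -2.99 for Cab39 (voom, total reads). Without ATF4 KO 2, Cab39 was at -0.73, with 0 reads in the ATF4 KO library that remained. Without ATF4 KO 1, Pikfyve was at 2.38 on 1 read and Cab39 at 2.37 on 3 reads. Inpp5d was at -3.53 there, with 0 reads and a value placed by the transform. Without ATF4 KO 2, Pikfyve was at 5.19 on 8 reads. Inpp5d was then at -0.62 on 3 reads, where 4.76 were expected at the size factors. The read ratio of the 8 genes, 0.817, was 0.198 at the yield of genes at WT levels 3 to 6 and 0.0289 at total reads. It was 0.429 to 1.22 with an ATF4 KO library left out. The cause of the other changes was not tested. The replicate numbers are not stated to pair libraries (correlation of deviations -0.08). Depth limits every member: expected reads at the size factors were under 10.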
